A study of Mus musculus with 16 samples.

Results

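Oxidative phosphorylation is carried out by complexes of the inner mitochondrial membrane whose subunits are encoded mostly in the nucleus. The genes described here are the 82 rows of the deposited single-cell table whose symbol begins with Ndufa, Ndufb, Ndufc, Ndufs or Ndufv and a number, with Uqcr, with Atp5 or with Cox and a digit from 4 to 8, or is Sdha, Sdhb, Sdhc or Sdhd. They are 82 of the 17721 genes of the table. By the subunit each encodes, 35 belong to complex I, 4 to complex II, 8 to complex III, 17 to complex IV and 15 to complex V, and 3 (Cox7a2l, Atp5s and Atp5sl) encode proteins that are not subunits of these complexes. Ndufa4 and its paralog Ndufa4l2 were counted with complex IV, the enzyme in which the NDUFA4 protein is now placed.

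The cells came from single pieces of mammary gland of pubertal mice 5 weeks old, dissected as 4 nipples, 6 ducts and 6 terminal end buds (TEBs), the growing tips of the ductal tree. All 16 fragments shared the strain C57BL/6 and the genotype K14-Cre/R26-mTmG, in which the keratin 14 promoter drives Cre and Cre switches a membrane reporter from red to green, so no group differed by genotype or treatment. Each cell was sorted into a well, and the 3' ends of its transcripts were counted in a SMART-seq protocol that adds a unique molecular identifier (UMI), each UMI standing for 1 captured molecule. The animal behind each fragment is not named, so the p-values below measure the spread between fragments, which may be smaller than the spread between mice.

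In respiration, electrons enter at complex I (NADH dehydrogenase) and complex II (succinate dehydrogenase, also an enzyme of the TCA cycle), pass through complex III (the cytochrome bc1 complex) to complex IV (cytochrome c oxidase), and the proton gradient that complexes I, III and IV build drives complex V, the ATP synthase. Complex I is built from catalytic core subunits, which carry the flavin, the iron-sulfur clusters and the quinone site, and from many accessory subunits around them. Some complex IV subunits have isoform genes that in other tissues are restricted to heart and muscle, testis or lung. Of 13 listed mRNAs of mitochondrially encoded subunits, 0 were found in the table, so these subunits were not analysed here.

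Many promoters of these genes are known to hold sites of the factors NRF1 and YY1 and of ETS family factors, and the windows below are printed because some genes with such letters are among those that differed between locations. Promoter sequence from 250 bases before to 50 bases after the start was taken from RefSeq on GRCm38.p6 and matched for 65 of the 82 genes. The NRF1 letters, GCGC and TGCGC with any base between them, were found on either strand in 17 of 65 genes (26.2%). The share was 5.19% over all 27025 genes with a promoter, which were not limited to genes expressed in these cells. Also on either strand, the letters CCGGAAG (ETS) were found in 16 (24.6%, against 9.93%) and AAGATGGCG (YY1) in 7 (10.8%, against 1.64%). Among the genes that were lower in nipple than TEB basal cells, 8 of 18 with a promoter (44.4%) held the NRF1 letters, and among the other tested genes 8 of 44 (18.2%) did, which is given as a description without a test. For the ETS letters these shares were 22.2% and 27.3%, and for the YY1 letters 11.1% and 11.4%. For genes called and not called between basal and ER+ luminal cells the NRF1 shares were 25.0% (12 of 48) and 26.7% (4 of 15). The windows of these 8 genes, of Ndufa11 and of 3 genes with the YY1 letters follow, 5' to 3' on the gene's strand, with the matched letters in capitals and the match nearest the start where a gene held several.
Ndufa8, chr2:36049350-36049377, minus strand: tagagcagtGCGCTTGCGCgtcgctgga
Ndufb4, chr16:37654372-37654399, minus strand: ctcatatccGCGCAGGCGCagatgtgcg
Sdha, chr13:74350232-74350259, minus strand: cgactcggtGCGCAAGCGCagtctgtcg
Sdhd, chr9:50603910-50603937, minus strand: cgctggggtGCGCACGCGCggtggcagc
Uqcrc1, chr9:108936644-108936671, plus strand: ttccttacaGCGCTTGCGCctcagactc
Atp5c1, chr2:10080431-10080458, minus strand: tgagctcccGCGCACGCGCactgagtcc
Atp5g2, chr15:102671071-102671098, minus strand: gctccggccGCGCATGCGCagagccttc
Atp5o, chr16:91931603-91931630, minus strand: ctggcgcgcGCGCGTGCGCtctggcgcc
Ndufa11, chr17:56717693-56717720, plus strand: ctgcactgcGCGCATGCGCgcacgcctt
Atp5j, chr16:84835047-84835073, minus strand, YY1 letters: agtgtaggaAAGATGGCGgagtcttag
Ndufs7, chr10:80249464-80249490, plus strand, YY1 letters: gccgaggccAAGATGGCGgcgctggcg
Ndufs4, chr13:114388045-114388068, minus strand, YY1 letters: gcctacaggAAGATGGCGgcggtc

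Of 1419 cells, 1317 passed the study's limits, and the fragments held 1856141 to 5233122 UMIs each. The 95 well barcodes were reused, each in more than 1 fragment and 33 of them in all 16, so cells are identified by fragment and barcode together. Clusters were named from fixed markers as basal-like (294 cells: 97 nipple, 115 duct, 82 TEB), ER+ luminal-like (426: 43, 211 and 172), ER- luminal-like (177: 48, 80 and 49), fibroblast-like (252), myeloid-like (78) and pericyte-like (19), and 71 cells of a cluster led by cycling genes stayed unnamed. Only 4 of the 82 genes were among the variable genes used for clustering. Leaving these 4 out kept the class of every one of the 1317 cells, a check of little weight since so few genes were removed. Basal-like cells came from a cluster of 211 nipple and duct cells, led by Cnn1, Actg2 and Myh11, and from a cluster of 83 cells, 82 of them from TEBs. The second was led by A230065H16Rik, Fabp5 and Gpx2 and held no basal marker among its 10 leading genes. The summed basal markers nevertheless stood at 4452 ± 1103 CPM (SD, n = 6) in TEB basal cells, against 72.6 ± 71.1 in the ER+ cells of the same fragments. This was below the level over all 16 basal-like sums, at 11635.5 ± 6129.31 CPM with a median of 13392.9. The basal marker score (z) was also lower in the second cluster, at 0.68 against 2.20 in the first, so its basal name is less firm. TEB and cluster therefore cannot be told apart in basal cells.

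Counts were summed over the cells of a class in a fragment, and levels are given as counts per 1e6 UMIs of that sum (CPM), as mean ± SD over fragments. Fitted log2 differences come from edgeR's quasi-likelihood test on the sums, with adjusted p-values (Benjamini-Hochberg over all genes tested) and a threshold of 0.05. Fold values are fitted and can differ slightly from the ratio of the CPM.

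The 82 genes together took more of the transcriptome in ER+ luminal cells than in the 4 other classes compared. Their summed share was 4.97 ± 0.303% of UMIs in ER+ luminal-like sums (n = 16), 3.80 ± 0.599% in ER- luminal-like (n = 14), 3.56 ± 0.431% in basal-like (n = 16), 2.30 ± 0.387% in fibroblast-like (n = 13) and 2.22 ± 0.339% in myeloid-like sums (n = 7). Within fragments, ER+ exceeded basal cells in 16 of 16 and ER- cells in 14 of 14, and each epithelial class exceeded fibroblasts and myeloid cells in every fragment that held both. Basal cells exceeded ER- cells in 4 of 14 fragments, with ratios of 0.749 to 1.12. Outside these classes, the unnamed cluster led by cycling genes stood at 2.34 to 5.28% (median 4.70%, 7 fragments), overlapping the ER+ range. The share over single cells was wide, with a 10th to 90th percentile of 3.60 to 5.86% in ER+, 2.36 to 4.93% in ER- and 2.47 to 4.34% in basal cells, so the classes overlapped cell by cell.

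**Figure D1:**
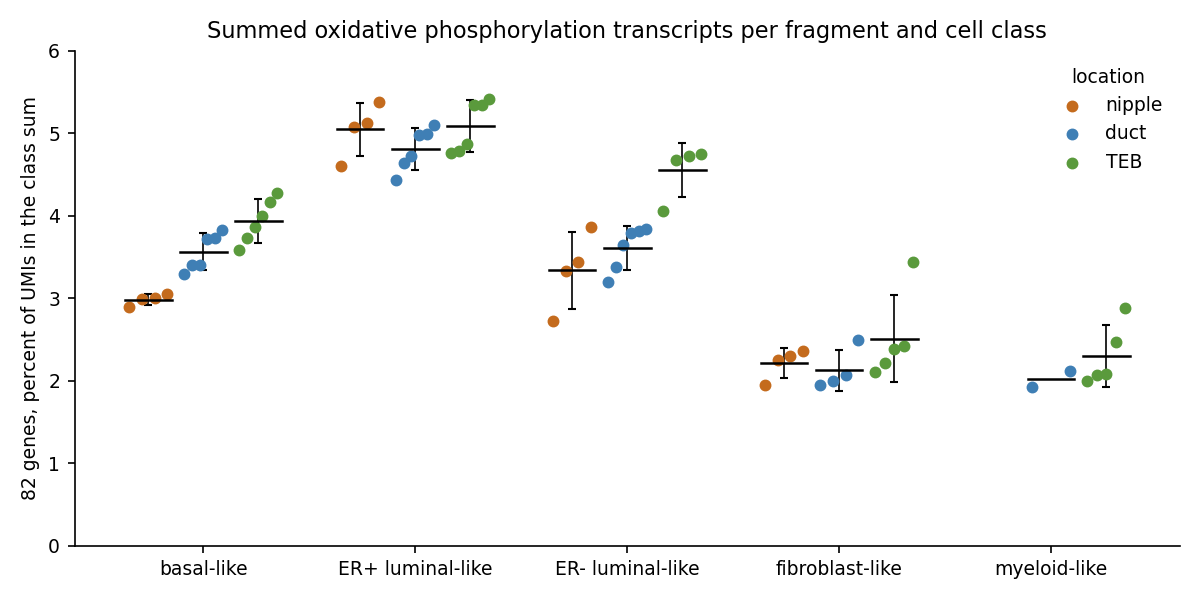
The vertical axis gives the summed UMIs of the 82 genes as a percent of all UMIs in the sum of a class in a fragment, with each point a fragment coloured by location, a bar at the mean and SD whiskers where 3 or more fragments are plotted. ER+ luminal-like points lie highest at every location, and nipple basal points (2.89 to 3.05%) lie below all duct (3.29 to 3.83%) and TEB (3.58 to 4.28%) basal points.

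Every complex contributed to the difference between ER+ and basal cells. Complex I transcripts summed to 15145 ± 1249 CPM in ER+ and 10099 ± 1781 in basal cells, complex II to 821 ± 132 and 618 ± 177, complex III to 5756 ± 538 and 4197 ± 459. Complex IV summed to 15139 ± 786 and 10628 ± 933, and complex V to 12493 ± 798 and 9722 ± 1212. Of 77 genes tested, 56 were lower and 1 was higher in basal than in ER+ cells, where 20% of all tested genes were lower and 19.8% higher. By complex, 26 of 34 tested genes of complex I were lower, 3 of 4 of complex II, 5 of 8 of complex III, 10 of 13 of complex IV and 11 of 15 of complex V. The median fitted log2 difference was -0.64 over the 77 genes and 0.0067 over all genes tested.

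The genes with the smallest p between basal and ER+ cells encode accessory subunits of complex I. Ndufa7 (chr17:33824572-33838317, plus strand, GRCm38), whose product sits in the arm that faces the matrix, was at 483 ± 99.4 CPM in basal cells (lowest 383, median 464, highest 696) and at 1408 ± 180 in ER+ cells (lowest 1075, median 1400, highest 1667). The ranges did not overlap, and basal cells were lower in 16 of 16 fragments (log2 difference -1.63 ± 0.12 SE, edgeR adjusted p = 3.89e-19). Ndufa6, Ndufa13 and Ndufv3 followed, at 340 against 705 CPM, 374 against 728 CPM and 163 against 505 CPM, each lower in basal cells in 16 of 16 fragments. The fitted log2 differences were -1.14 for Ndufa6, -1.04 for Ndufa13 and -1.69 for Ndufv3.

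The fixed set of subunits, which was not picked by p and so cannot be compared with the genes above, held genes that passed and genes that did not. Sdha, the flavoprotein of complex II, was lower in basal cells (85.4 ± 39.6 against 163 ± 24.8 CPM, log2 -1.14 ± 0.23, adjusted p = 2.29e-05). So were Cox5a (523 ± 96.0 against 951 ± 149 CPM) and Cox4i1 (1450 ± 163 against 2013 ± 131 CPM), subunits of complex IV. The ATP synthase beta subunit Atp5b (1121 ± 132 against 1542 ± 160 CPM) and the Rieske protein Uqcrfs1 (230 ± 56.2 against 346 ± 41.3 CPM) were lower as well. Ndufv1, which encodes the subunit at the NADH site of complex I, was also lower (log2 -0.65). Ndufs1, Sdhb, Uqcrc1 and the alpha subunit gene Atp5a1 did not pass the test, with log2 differences of 0.25 ± 0.30, -0.15 ± 0.19, -0.13 ± 0.16 and -0.15 ± 0.13 (SE). Cox6c, a small structural subunit of complex IV, stood at 1447 ± 305 CPM in basal and 1379 ± 195 CPM in ER+ cells (log2 0.0077 ± 0.10, adjusted p = 0.965). Ndufa11, an accessory subunit of the membrane arm, was the exception in direction, at 664 ± 184 CPM in basal and 482 ± 111 CPM in ER+ cells (log2 0.43 ± 0.17, adjusted p = 0.0388), higher in basal cells in 14 of 16 fragments. This call was lost in 12 of 25 other settings, where the log2 difference stayed between 0.32 and 0.50.

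The same subunit can be encoded by several genes, and the copies did not all follow each other. Of the 3 genes for subunit c, whose mature protein is the same, Atp5g1 (644 ± 135 against 848 ± 131 CPM, log2 -0.48 ± 0.13, adjusted p = 0.00193) and Atp5g2 (159 ± 60.0 against 274 ± 73.1 CPM, log2 -0.87 ± 0.19, adjusted p = 7.65e-05) were lower in basal than in ER+ cells. Atp5g3 gave 458 ± 73.3 against 407 ± 64.1 CPM and did not pass (log2 0.10 ± 0.13, adjusted p = 0.573). The widely used complex IV isoforms Cox6a1 (1086 ± 118 against 1698 ± 148 CPM), Cox6b1 (1164 ± 126 against 1769 ± 121 CPM) and Cox7a2 (759 ± 134 against 1215 ± 135 CPM) were each lower in basal cells in 16 of 16 fragments, and Cox4i1 and Cox8a were too. Ndufa4 did not pass (1137 ± 155 against 1242 ± 134 CPM, adjusted p = 0.139).

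Against ER- cells, ER+ cells had 41 of 77 genes higher and 0 lower (over all genes 12.5% higher and 10.3% lower), with a median log2 difference of 0.45 against 0.098 over all genes. Ndufa7 led again, at 1408 ± 180 CPM in ER+ and 646 ± 184 CPM in ER- cells (log2 1.14 ± 0.13, adjusted p = 2.08e-11, higher in 14 of 14 fragments). Cox8a (1848 ± 189 against 1157 ± 309 CPM), Uqcr11 (1192 ± 189 against 631 ± 205 CPM) and Ndufa1 (489 ± 103 against 258 ± 93.5 CPM) were likewise higher in 14 of 14. Basal against ER- cells gave 5 genes higher and 15 lower (over all genes 13.9% and 11%). The count fell to 10 with cells thinned to 5000 UMIs, 9 with G1 cells alone, 12 without a filter on low counts and 13 without duct replicate 31. The 5 that were higher in basal cells were Ndufa1 (log2 0.85 ± 0.14), Ndufa11 (0.73 ± 0.18), Cox6b2 (2.70 ± 0.69), Uqcrq (0.36 ± 0.13) and Cox6c (0.31 ± 0.11). Among the 15 that were lower, Cox7a1, Cox7c (780 ± 181 against 1127 ± 218 CPM), Sdha and Ndufa7 had the smallest p.

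**Figure D2:**
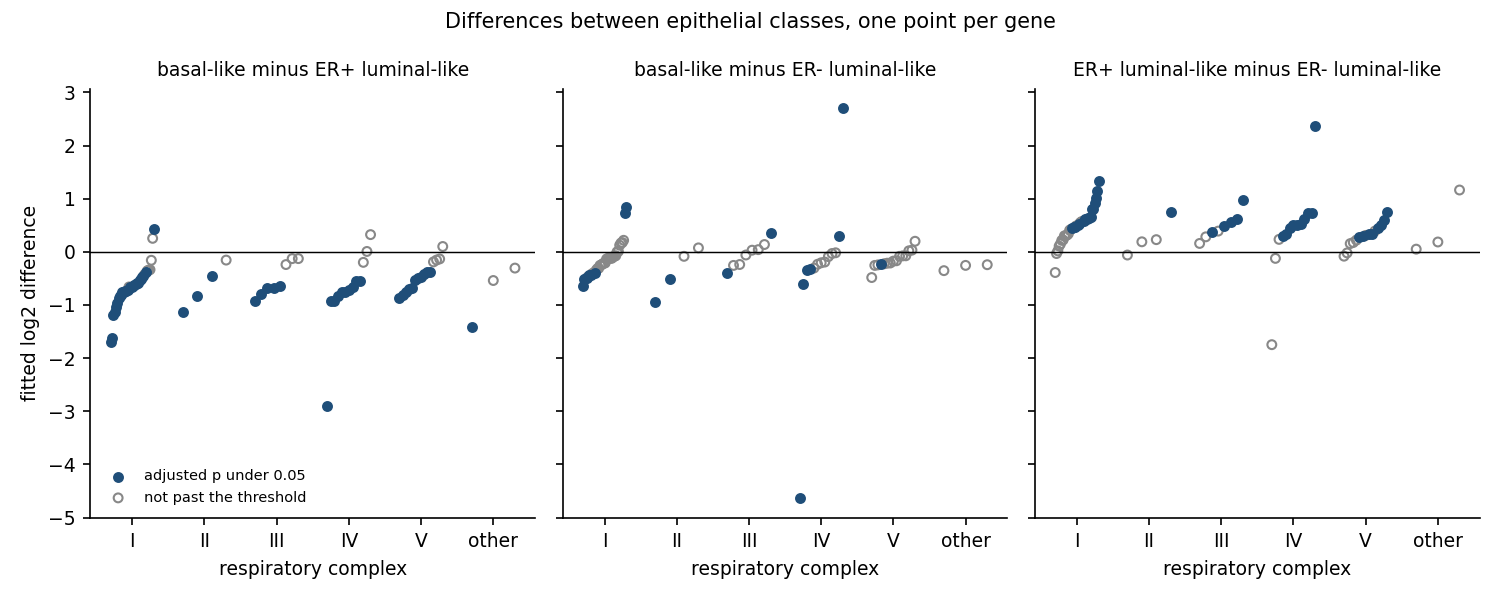
Each point is a gene placed by its complex, and the vertical axis gives the fitted log2 difference between classes, with filled points past an adjusted p of 0.05 and open points not past it. In the left panel 56 genes lie below 0 as filled points and 1 above, in the middle panel 15 and 5, and in the right panel 41 filled points lie above 0 and 0 below.

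Within basal cells, the 82 genes took 2.98 ± 0.0652% of UMIs in the nipple (2.99, 3.05, 2.89 and 3.00% in the 4 fragments), 3.56 ± 0.224% in the duct (lowest 3.29, median 3.56, highest 3.83%) and 3.94 ± 0.263% in the TEB (lowest 3.58, median 3.93, highest 4.28%). All nipple values lay below all duct and TEB values, and duct and TEB overlapped. Complex I moved from 7851 ± 367 CPM in the nipple to 9976 ± 592 in the duct and 11722 ± 1364 in the TEB. Complex II moved from 409 ± 68.5 to 645 ± 130 and 731 ± 153, and complex V from 8120 ± 719 to 9706 ± 550 and 10807 ± 571. Complex III moved from 3777 ± 213 to 4137 ± 492 and 4536 ± 282, and complex IV from 9438 ± 642 to 10936 ± 706 and 11113 ± 579. Per spike-in UMI, the genes gave 2.17 ± 0.0985 UMIs in nipple, 4.15 ± 0.450 in duct and 6.29 ± 0.755 in TEB basal cells.

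Between nipple and TEB basal cells, 20 of 76 genes tested were lower in the nipple and 0 were higher, where 9.81% of all tested genes were lower and 8.9% higher. They were 9 of 34 tested in complex I, 2 of 4 in complex II, 1 of 8 in complex III, 2 of 12 in complex IV, 5 of 15 in complex V and Atp5sl. The median log2 difference was -0.41 over the 76 genes and -0.05 over all genes. With total UMIs in place of TMM factors 38 genes were lower and 0 higher, while the median over all genes moved from -0.05 to -0.23 and that of the 76 genes to -0.58. With G1 cells alone 7 genes passed, all lower in the nipple, at a median of -0.42 against 0.02 over all genes, and without nipple replicate 23 there were 12.

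In complex I, accessory and core subunits were among the genes called. Ndufc2, an accessory subunit of the membrane arm (chr7:97400003-97407802, plus strand, GRCm38), was at 162, 114, 158 and 154 CPM in the 4 nipple fragments, 121 to 344 in the ducts and 279 to 426 in the TEBs. Every TEB fragment lay above every nipple fragment, and the ducts overlapped both. The log2 difference from nipple to TEB was -1.10 ± 0.25 SE (edgeR adjusted p = 0.00156), a 2.14-fold lower level, and that from nipple to duct was -0.72 ± 0.25 and did not pass (adjusted p = 0.0783). Ndufa8 was at 106, 42.96, 75.6 and 94.9 CPM in the nipples, 118 to 282 in the ducts and 130 to 244 in the TEBs, so the nipple stood below both. The difference passed in each case (log2 -1.10 ± 0.30 against TEB, adjusted p = 0.00823, and -1.33 ± 0.30 against duct, adjusted p = 0.00496). Ndufv1, the NADH-binding core subunit, was lower in nipple than in TEB (56.1 ± 24.04 against 148 ± 32.5 CPM, log2 -1.23 ± 0.39, adjusted p = 0.0222).

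In complex II, both Sdha and the membrane anchor Sdhd were lower in the nipple. Sdha was at 49.0, 64.4, 25.2 and 48.4 CPM in the nipples and 105 to 155 in the TEBs (log2 -1.24 ± 0.38, adjusted p = 0.0186), and Sdhd at 52.8, 44.5, 59.6 and 41.2 CPM against 76.0 to 197 (log2 -1.17 ± 0.36, adjusted p = 0.0191). Nipple and TEB did not overlap in either gene. Sdhb gave 181 ± 48.4 against 298 ± 71.1 CPM and did not pass (log2 -0.57 ± 0.26, adjusted p = 0.139).

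In complex V the genes called encode parts of the rotor and the stalk. Atp5o, which encodes the OSCP subunit that joins the stalk to the catalytic head, was at 296, 304, 319 and 387 CPM in the nipples, 350 to 578 in the ducts and 495 to 779 in the TEBs (nipple to TEB log2 -0.73 ± 0.18, adjusted p = 0.00309). Atp5c1, the rotating gamma subunit, was at 223, 265, 307 and 222 CPM in the nipples against 387 to 668 in the TEBs (log2 -0.79 ± 0.21, adjusted p = 0.00583). Atp5j, the F6 subunit of the stalk, was at 596 ± 164 against 1045 ± 91.5 CPM (log2 -0.64 ± 0.16, adjusted p = 0.00466). Of the genes for subunit c of the membrane ring, Atp5g2 was at 90.5, 93.6, 61.9 and 125 CPM in the nipples against 168 to 238 in the TEBs (log2 -1.05 ± 0.28, adjusted p = 0.00727), a gap with no overlap. Atp5g1 and Atp5g3 did not pass (log2 0.24 and -0.17). The catalytic subunits Atp5a1 and Atp5b did not pass, at 543 ± 74.1 against 755 ± 98.1 CPM (log2 -0.31 ± 0.15, adjusted p = 0.163) and 977 ± 98.6 against 1203 ± 48.4 CPM (log2 -0.13 ± 0.13, adjusted p = 0.533).

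Complexes III and IV showed fewer calls. Uqcrc1, a core protein of complex III, was lower in nipple than TEB (242 ± 60.9 against 415 ± 30.1 CPM, log2 -0.61 ± 0.20, adjusted p = 0.0305). This call was kept in 17 other settings and lost in 8. Cox7c was at 569 ± 56.6 against 947 ± 101 CPM (log2 -0.57 ± 0.15, adjusted p = 0.00634). Cox4i1 (1485 ± 199 against 1365 ± 129 CPM), Cox5a (465 ± 65.5 against 559 ± 66.6 CPM), Uqcrfs1 (197 ± 32.2 against 273 ± 48.5 CPM) and Ndufs1 (55.6 ± 24.9 against 69.1 ± 22.6 CPM) did not pass the test between nipple and TEB, with adjusted p from 0.0994 to 0.856.

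Between nipple and duct basal cells 9 genes were lower in the nipple and 0 higher (over all genes 4.06% and 2.23%), and the count was 4 without nipple replicate 21, 5 without nipple replicate 23 and 1 with G1 cells alone. Ndufa11 led, at 422, 393, 465 and 575 CPM in the nipples and 700 to 1157 in the ducts (log2 -0.84 ± 0.17, adjusted p = 0.00158). Cox6c followed, at 1171, 1252, 1020 and 1141 CPM against 1467 to 1943 (log2 -0.59 ± 0.13, adjusted p = 0.00472). In neither gene did nipple and duct overlap, and in neither did nipple and TEB differ past the threshold (log2 -0.29 ± 0.17 for Ndufa11 and -0.08 ± 0.13 for Cox6c).

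Duct and TEB basal cells differed in 4 genes, 2 in each direction (over all genes 6.48% higher in duct and 3.91% lower). Ndufa11 (824 ± 167 against 637 ± 81.0 CPM, log2 0.54 ± 0.15, adjusted p = 0.0126) and Cox6c (1730 ± 173 against 1364 ± 259 CPM, log2 0.51 ± 0.12, adjusted p = 0.00302) were higher in the duct. Ndufs7, an iron-sulfur core subunit of complex I, was lower in the duct (98.0 ± 50.2 against 218 ± 61.8 CPM, log2 -1.02 ± 0.28, adjusted p = 0.0145). So was Cox7a2l, which encodes the supercomplex factor SCAF1 (220 ± 45.9 against 389 ± 56.5 CPM, log2 -0.65 ± 0.19, adjusted p = 0.02). With total UMIs in place of TMM factors the split was 0 higher and 6 lower in the duct, and 2 of the 4 genes kept their call. The median over all genes moved from -0.04 to -0.22, so the direction of the count here depends on the scaling. With G1 cells alone 1 gene passed, and with a replicate block 1 did.

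**Figure D3:**
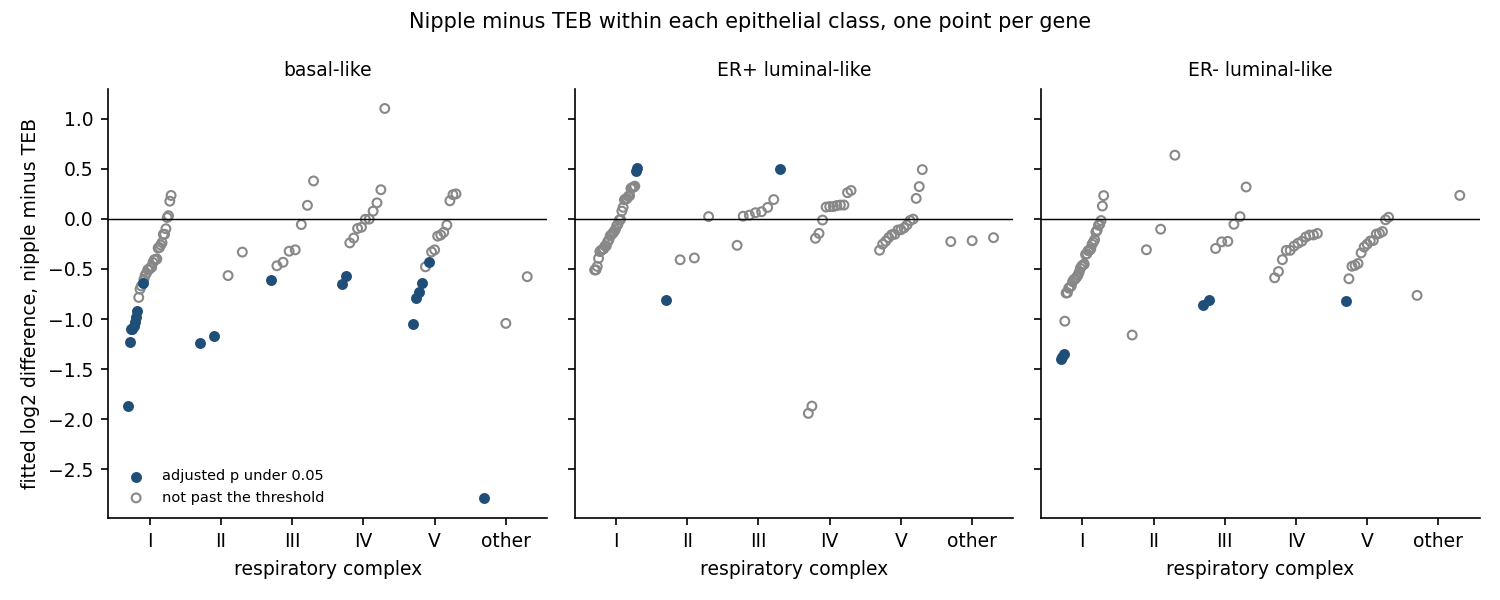
Each point is a gene placed by its complex, and the vertical axis gives the fitted log2 difference of nipple minus TEB, with filled points past an adjusted p of 0.05 and open points not past it. Filled points number 20 in basal-like cells, all below 0, 4 in ER+ luminal-like cells (3 above 0) and 6 in ER- luminal-like cells, all below 0.

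Other measures moved with location in basal cells. The 16 genes of a cycling list summed to 229 ± 41.4 CPM in the nipple, 478 ± 79.8 in the duct and 1385 ± 607 in the TEB, and 12 of 16 were lower in nipple than TEB. Cells scored as G1 were 76.3% of nipple, 65.2% of duct and 54.9% of TEB basal cells. With G1 cells alone the summed share of the 82 genes was 2.96 ± 0.0712, 3.44 ± 0.330 and 3.95 ± 0.223% (n = 4, 6 and 4). All 7 fibroblast markers together gave 1467 ± 403 CPM in nipple basal cells (range 911 to 1861), 345 ± 87.7 in duct (257 to 454) and 342 ± 108 in TEB basal cells (228 to 492.7), against means of 23129 to 36275 in the fibroblast-like sums of these locations. Endogenous UMIs per spike-in UMI were 72.6 ± 1.88, 117 ± 11.4 and 160 ± 14.001. The part of fibroblast RNA, RNA content and basal cluster in the gene results was not tested.

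In ER- luminal cells the summed share was again lowest on average in the nipple and highest in the TEB, at 3.33, 2.73, 3.86 and 3.44% in the nipples, 3.20 to 3.85% with a median of 3.72% in the ducts and 4.06, 4.68, 4.72 and 4.75% in the 4 TEBs with enough cells. Each TEB value lay above all nipple and duct values, and nipple and duct overlapped. Of 75 genes tested, 6 were lower in nipple than TEB and 0 higher (over all genes 1.55% and 3.09%), and the median log2 difference was -0.31 against -0.03. No gene kept its call when TEB replicate 34 or TEB replicate 42 was left out. G1 cells alone and fragments of at least 10 cells each left 1 TEB fragment and cannot decide the calls. There was 1 call without nipple replicate 22, 1 without nipple replicate 24 and 1 without TEB replicate 33, and 2 when only the locations compared entered the fit.

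The ER- genes were again spread over complexes. Uqcr11, a small subunit of complex III, was at 269, 430, 659 and 390 CPM in the nipples and at 900, 833, 863 and 866 in the TEBs (log2 -0.86 ± 0.23, adjusted p = 0.0211), with no overlap. Ndufs4, an accessory subunit of complex I whose loss causes Leigh syndrome in people, was at 192, 29.2, 143 and 164 CPM against 265, 369, 423 and 417 (log2 -1.35 ± 0.36, adjusted p = 0.0235). Ndufa8 was at 94.9 ± 25.2 against 271 ± 103 CPM (log2 -1.38 ± 0.39, adjusted p = 0.0333), where 1 TEB fragment fell within the nipple range. Atp5o and Uqcrc1 were also lower in the nipple (log2 -0.82 ± 0.24 and -0.81 ± 0.24).

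Nipple and duct ER- cells gave 0 calls among 75 genes by edgeR (over all genes 1.09% higher and 0.572% lower), with 4 at an unadjusted p under 0.05 and 0 by DESeq2. Duct against TEB gave 1 call (over all genes 1.25% higher and 0.179% lower). Ndufa11, at 221 to 417 CPM in the ducts and 685, 563, 630 and 506 in the TEBs, was lower in the duct (log2 -1.04 ± 0.22, adjusted p = 0.00844). The call was lost with thinned cells. G1 cells alone and fragments of at least 10 cells each left 1 TEB fragment and cannot decide it. In these cells the cycling list summed to 471 ± 380 CPM in nipple, 824 ± 323 in duct and 1712 ± 1126 in TEB, G1 shares were 70.8, 53.8 and 32.7%, and the 8 basal markers summed to 2019 ± 811, 327 ± 168 and 68.3 ± 41.9 CPM. The fibroblast markers summed to 1165 ± 317, 197 ± 76.6 and 189.6 ± 83.3 CPM. Their part in the result was not tested.

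ER+ luminal cells carried about the same summed share at each location, 5.05 ± 0.324% in nipple, 4.81 ± 0.252% in duct and 5.09 ± 0.312% in TEB, with overlapping ranges. Of 77 genes, 3 were higher and 1 lower in nipple than TEB (over all genes 2.6% and 2.96%). Uqcrq, the small ubiquinone-binding subunit of complex III, was at 877, 916, 1073 and 946 CPM in the nipples and 567 to 787 in the TEBs (log2 0.50 ± 0.12, adjusted p = 0.0102). Ndufa1 (604 ± 139 against 439 ± 65.2 CPM, adjusted p = 0.0461) and Ndufa5 (512 ± 47.9 against 364 ± 62.4 CPM, adjusted p = 0.0491) passed narrowly. Sdhc, a membrane anchor of complex II, was at 129, 88.8, 206 and 139 CPM in the nipples and 209 to 297 in the TEBs (log2 -0.81 ± 0.21, adjusted p = 0.0139). Without nipple replicate 23, 4 genes passed, all lower in the nipple and 1 of them among these 4. The count was 2 with total UMIs, with thinned cells, with G1 cells alone and without duct replicate 32, 51 or 52 or TEB replicate 31, 34 or 42.

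Nipple against duct ER+ cells gave 0 calls by edgeR (over all genes 0.866% higher and 1.12% lower), with 15 genes at an unadjusted p under 0.05, 1 call by DESeq2 and 2 without nipple replicate 23. Duct against TEB gave 1 call (over all genes 1.11% higher and 0.581% lower). Ndufv3, an accessory subunit near the NADH site, was at 295 to 499 CPM in the ducts and 557 to 777 in the TEBs (log2 -0.75 ± 0.15, adjusted p = 0.00445), without overlap. A further gene passed without duct replicate 31, with a replicate block and by DESeq2. In fibroblast-like cells 0 of 76 genes passed between nipple and TEB by edgeR (over all genes 1.11% higher and 0.436% lower), with 6 at an unadjusted p under 0.05, 0 by DESeq2 and 1 with fragments of at least 10 cells.

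The test of class by location asks whether the pattern over nipple, duct and TEB differs between the 3 epithelial classes. It called 11 of 77 genes, where 6.75% of all genes were called. The count was 1 with G1 cells alone, 4 with thinned cells, 4 with fragments of at least 10 cells and 7 without a filter on low counts, without nipple replicate 22 or without TEB replicate 33. Among those called were Ndufa11 (adjusted p = 2.68e-06), Cox6c (0.000771), Ndufc2 (0.0194) and Atp5g2 (0.0336). Ndufa11 was highest in the duct in basal cells and lowest there in ER- cells, at 464 ± 79.8, 824 ± 167 and 637 ± 81.0 CPM over nipple, duct and TEB in basal cells. The same locations gave 564 ± 201, 454 ± 63.4 and 455 ± 39.5 in ER+ cells and 425 ± 80.0, 280 ± 71.2 and 596 ± 77.8 in ER- cells. Vmac overlaps Ndufa11 and Vps13b overlaps Cox6c, both on the opposite strand, and reads of such a pair can be told apart only where the counting used strand, which the sources used here do not give. Cox6c was at 1146 ± 96.2, 1730 ± 173 and 1364 ± 259 CPM in basal cells. It was at 1599 ± 163, 1277 ± 119 and 1334 ± 172 in ER+ and 1021 ± 183, 1116 ± 111 and 1346 ± 225 in ER- cells.

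For Ndufc2 the nipple to TEB difference in basal cells minus that in ER+ cells was -1.31 ± 0.31 on the log2 scale (adjusted p = 0.00425). Between ER+ and ER- cells the difference of differences was 1.05 ± 0.33 and did not pass (adjusted p = 0.0712), and between basal and ER- cells it was -0.26 ± 0.33 (adjusted p = 0.767). Over nipple, duct and TEB, Ndufc2 stood at 383 ± 67.4, 308 ± 48.2 and 313 ± 77.7 CPM in ER+ cells and at 268 ± 33.9, 306 ± 137 and 489.7 ± 22.3 CPM in ER- cells. For Atp5g2 the basal difference was also below that in ER+ cells, by -1.47 ± 0.34 (adjusted p = 0.00337). Atp5g2 stood at 92.8 ± 25.97, 146 ± 46.03 and 215 ± 27.9 CPM in basal cells and at 353 ± 56.6, 242 ± 68.6 and 253 ± 52.1 CPM in ER+ cells.

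**Figure D4:**
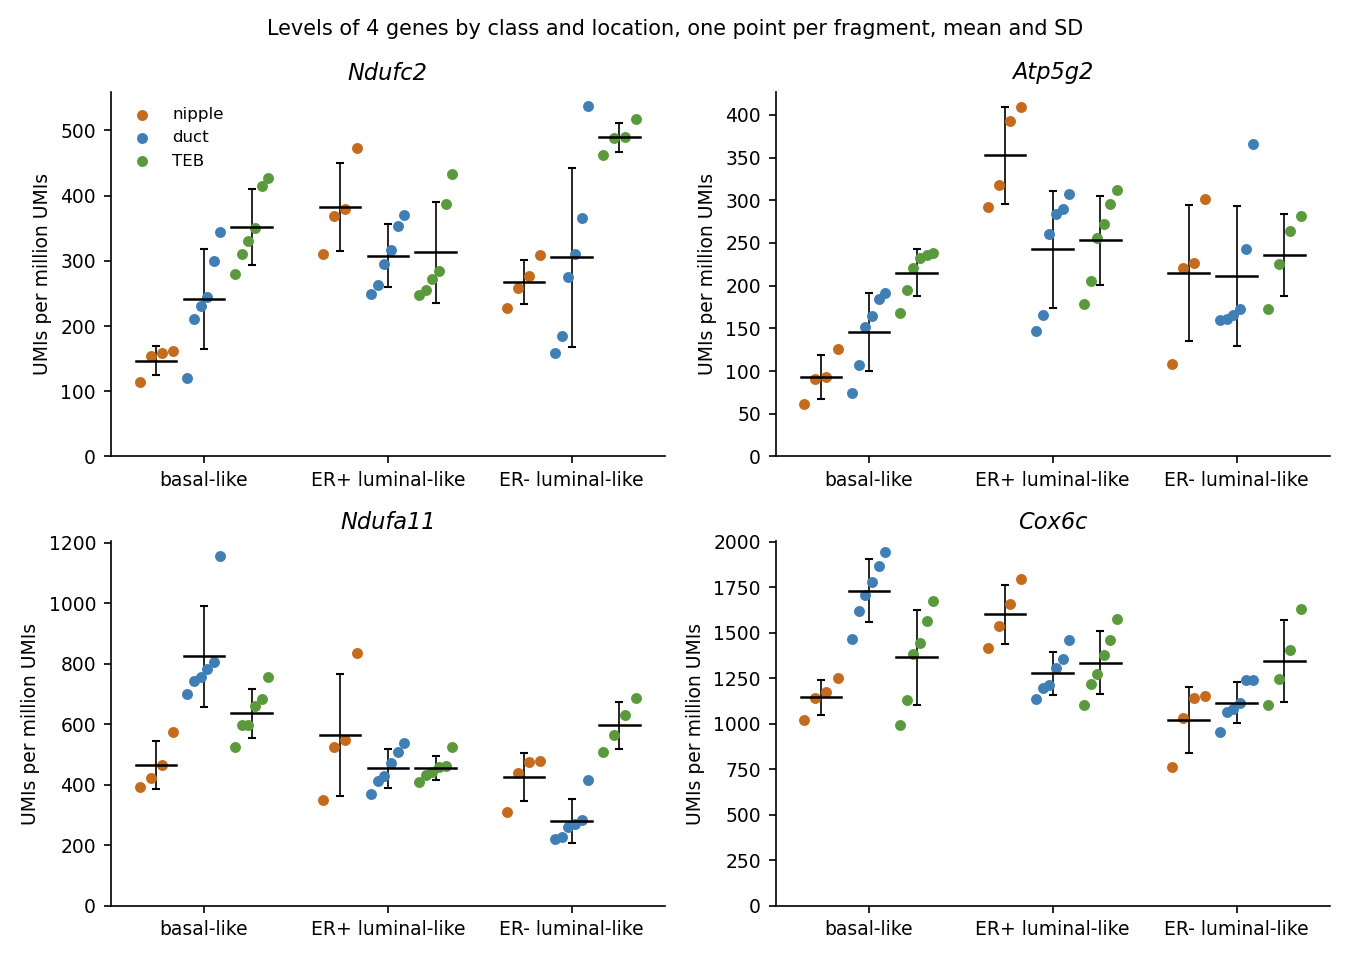
Each panel plots a gene, with CPM on a vertical axis that starts at 0, a point per fragment coloured by location, and the mean with SD whiskers. The means of Ndufc2 and Atp5g2 are lowest in the nipple in basal-like cells and highest there in ER+ luminal-like cells. Among locations, the mean of Ndufa11 is highest in the duct in basal-like cells and lowest there in ER- luminal-like cells, with overlapping points.

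The tissue isoform genes of complex IV had few UMIs, and most of their differences lay between classes. Cox7a1, the heart and muscle isoform, was counted with 18 UMIs in basal, 231 in ER+ and 226 in ER- cells, at 2.11 ± 5.43, 12.6 ± 14.4 and 37.0 ± 24.9 CPM. It was lower in basal than in ER- cells in 13 of 14 fragments and at 0 in both in the other (log2 -4.64 ± 0.78, adjusted p = 1.45e-06). It was also lower than in ER+ cells in 12 of 16, higher in 2 and at 0 in both in 2 (log2 -2.89 ± 0.77, adjusted p = 0.00157). The value of nipple replicate 24, 21.5 CPM, was the highest among basal sums. Cox6b2, the testis isoform, went the other way, at 47.4 ± 36.2 CPM in basal, 31.8 ± 24.5 in ER+ and 6.39 ± 9.76 in ER- cells. It was lower in ER- cells than in basal (log2 2.70 ± 0.69, adjusted p = 0.00156) and ER+ cells (log2 2.37 ± 0.67, adjusted p = 0.00547), in 12 of 14 fragments each. Fibroblast sums also held Cox6b2, at 172 CPM in duct replicate 62 and 11.2 to 18.9 in the other ducts. Nipple fibroblasts gave 10.2 to 41.8 CPM and TEB fibroblasts 0 to 17.1.

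Ndufa4l2, a paralog of Ndufa4 known to be induced by hypoxia, had 0 UMIs in basal and myeloid sums, 5 in ER+ and 2 in ER- sums, and 252 in fibroblasts. Over all deposited cells it had 533. The cells outside these sums, which include the pericyte-like and unnamed cells, were not examined for it. In fibroblasts it stood at 45.6, 38.4, 46.2 and 63.1 CPM in the 4 nipples, at 0, 13.6, 4.0, 17.1 and 0 in the 5 TEBs and at 0 in all 4 ducts. Every nipple lay above every TEB, but the difference did not pass (log2 2.89, adjusted p = 0.184). Fibroblasts of nipples and TEBs fell mostly in different clusters (115 of 116 nipple cells in the cluster led by Mmp3 and Penk, 64 of 98 TEB cells in the cluster led by Pi16). Cox4i2, the lung isoform, was at 32.05, 25.9, 2.6 and 4.3 CPM in nipple fibroblasts, above 0 in 1 of 4 duct and 1 of 5 TEB fibroblast sums, and had 51 UMIs in basal cells. Cox6a2 was counted mostly in a few sums, with 29 UMIs in 1 TEB myeloid sum and 46 in 3 TEB basal sums. Cox7b2 had 0 UMIs in all cells and Ndufs5 had 1, although Ndufs5 encodes a subunit present in every complex I, and its level here is uncertain. Cox8b and Cox8c had no row under these symbols in the table, so they were not analysed here.

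**Figure D5:**
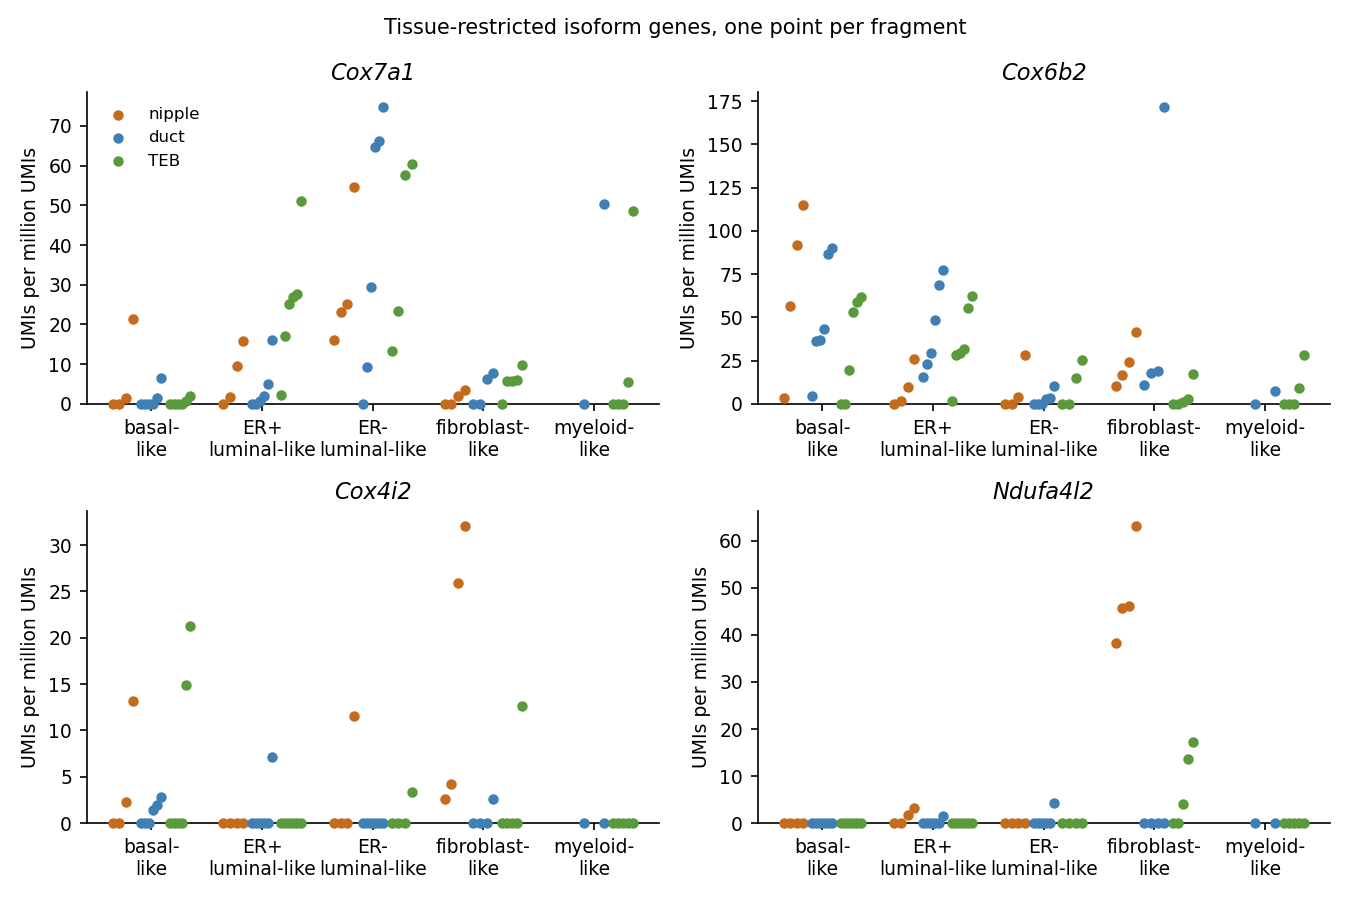
Each panel plots an isoform gene, with CPM on a vertical axis that starts at 0 and a point per fragment, coloured by location, for each class. Cox7a1 points are highest in ER- luminal-like cells, and Ndufa4l2 points above 20 CPM are all from nipple fibroblast-like cells. Cox6b2 points lie higher in basal-like and ER+ than in ER- luminal-like cells, and a duct fibroblast-like point lies at 172 CPM.

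The rest of the mitochondrial machinery was read from gene lists, of which the genes named were picked after their values were seen. Between nipple and TEB basal cells, 6 of 16 electron carrier and exchange genes (37.5%) were lower in the nipple and 0 higher, against 9.81% lower and 8.9% higher over all genes. Among them were the electron transfer flavoprotein genes Etfa (log2 -2.46 ± 0.40, adjusted p = 2.13e-05) and Etfb (-1.52 ± 0.34, 0.00122), the acyl carrier gene Ndufab1 (-1.19 ± 0.24, 0.000539) and the ADP/ATP carrier gene Slc25a4 (-0.67 ± 0.16, 0.00309). Of 18 TCA cycle genes 3 were lower (Fh1, Idh2 and Suclg1, log2 -1.997, -1.34 and -1.04) and 1 higher (Ogdh, log2 1.02). Of 76 mitochondrial ribosomal protein genes 8 (10.5%) were lower and 0 higher, and of 30 assembly factor genes 3 (10%) were lower and 0 higher, shares of lower genes close to that over all genes. Of 17 glycolysis genes 5 (29.4%) were higher in the nipple and 0 lower. Among them were the hexokinase gene Hk2 (log2 2.54 ± 0.43, adjusted p = 3.69e-05), the glucose transporter gene Slc2a1 (1.40 ± 0.30, 0.000883), Aldoa (0.59 ± 0.15, 0.0052) and Ldha (0.45 ± 0.14, 0.0207). Of 8 regulators of mitochondrial biogenesis 2 were higher in the nipple (Myc, log2 1.33 ± 0.28, and Pprc1, 1.93 ± 0.64) and 0 lower, and Nrf1 and Gabpa did not pass (log2 -0.34 ± 0.64 and -0.77 ± 0.60).

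In ER+ cells 7 of 16 glycolysis genes (43.8%) were lower and 1 higher in nipple than TEB, against 2.96% and 2.6% over all genes, among them Gapdh (log2 -1.19 ± 0.14, adjusted p = 5.24e-07) and Pkm (-1.13 ± 0.15, 1.99e-06). In ER- cells Slc2a1 and Myc were higher in nipple than TEB (log2 1.86 ± 0.42 and 1.78 ± 0.38). Between basal and ER+ cells, 27 of 76 mitochondrial ribosomal protein genes (35.5%) were lower in basal cells and 2 higher, against 20% lower and 19.8% higher over all genes. In the same comparison 8 of 16 electron carrier genes (50%) were lower and 2 higher. The shares of lower genes were nearer to that over all genes in assembly factors (9 of 35, 25.7%, with 1 higher), the TCA cycle (5 of 18, 27.8%, with 1 higher) and glycolysis (5 of 18, 27.8%, with 3 higher).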

How the data were processed

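Single cells of dissected mammary fragments were sorted into wells and profiled by 3' SMART-seq with unique molecular identifiers. The authors deposited UMI counts per gene and cell, which were not normalized. The submitters' processing notes name Trim Galore, FastQC, UMI-tools, STAR, featureCounts and mm10, without roles or versions, and whether the counting used strand is not given in the sources used here. Uniquely assigned reads would lose genes with near-identical copies, as may apply to Ndufs5.

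Cells were kept at no more than 5% spike-in UMIs, 5000 to 120000 UMIs and 200 to 6000 genes, and clustered with Seurat 5.3.0 (R 4.3.3) on 2000 variable genes, 14 principal components and a resolution of 0.5. Clusters were named from markers, no doublet caller was run, and counts were summed per class and fragment with at least 5 cells. Sums were tested with edgeR 4.0.16 (quasi-likelihood, TMM factors, filter on low counts), with the fragment as a block between classes and p-values adjusted over all genes tested. DESeq2 1.42.0, other scaling, filters, thinning to 5000 UMIs and leaving out each fragment were alternatives. Named genes were a fixed set of core and other subunits and the isoform genes. Up to 4 called genes in each direction of a comparison by smallest p were added, with the 4 smallest p of class by location. Sdhd and Atp5c1, both called between nipple and TEB basal cells, were described outside this rule and not followed in the alternatives. The fit was tested on simulated data. Results of 1 gene are not reported here. The members and lists were chosen with earlier results of these data known.

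Fragments held 1856141 to 5233122 UMIs. Intervals are not given, since the spread between fragments covers counting error. No column of other samples was used. The label numbers 31 and 32, which duct and TEB fragments share, were checked for pairing (correlations of deviations -0.0149 to 0.0414). This check cannot tell whether fragments came from the same mouse.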

Additional observations from a re-analysis of the deposited data

Results flagged for a closer look

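Dixon's test at the 95% level was applied to 84 groups of 4 to 6 fragments, of which 10 held a fragment that stood apart, where chance gives about 1 in 20. In the summed share of UMIs, TEB replicate 32 was at 4.06% in ER- luminal-like cells (others 4.68 to 4.75%) and TEB replicate 42 at 3.44% in fibroblast-like cells (others 2.11 to 2.42%). In basal-like cells, nipple replicate 22 was at 114 CPM for Ndufc2 (others 154 to 162), duct replicate 61 at 1157 for Ndufa11 (others 700 to 807), duct replicate 31 at 350 for Atp5o (others 498 to 578) and duct replicate 32 at 1083 for Atp5j (others 677 to 826). In ER+ luminal-like cells, duct replicate 52 was at 527 CPM for Uqcrq (others 679 to 768). In ER- luminal-like cells, duct replicate 31 was at 875 CPM for Uqcr11 (others 513 to 589), TEB replicate 32 at 118 for Ndufa8 (others 313 to 339) and duct replicate 32 at 417 for Ndufa11 (others 221 to 282).

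The pattern over locations differed between the 3 epithelial classes in 11 genes by edgeR's test of class by location. Among them the adjusted p was 2.68e-06 for Ndufa11, 0.000771 for Cox6c, 0.0194 for Ndufc2, 0.027 for Cox8a, 0.0279 for Uqcr11, 0.0284 for Cox7c, 0.0284 for Sdhc, 0.0327 for Cox7a2l, 0.0336 for Atp5g2 and 0.049 for Uqcrq. In Sdhc the nipple to TEB difference in ER+ cells minus that in ER- cells was -1.56 ± 0.36 (log2), and in Uqcr11 it was 1.04 ± 0.24.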

How the results depend on the processing

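No call of a gene named by the rule reversed in any alternative where it was tested, and Sdhd and Atp5c1 were not checked. Total UMIs in place of TMM factors gave 38 calls between nipple and TEB basal cells, 1 between nipple and duct ER+ cells and 2 between nipple and TEB ER+ cells, and moved the median over all genes from -0.03 to -0.17 between nipple and TEB ER- cells and from -0.02 to -0.12 in fibroblasts. RLE factors and DESeq2 each gave 1 between nipple and duct ER+ cells, and DESeq2 gave 2 between duct and TEB in ER- and in ER+ cells. Without a low-count filter basal against ER- cells gave 12 and class by location 7, and with thinned cells these were 10 and 4, with 0 for duct against TEB ER- cells and 2 for nipple against TEB ER+ cells. Fragments of at least 10 cells gave 1 in fibroblasts and fewer for class by location. They left 1 TEB fragment of ER- cells, which cannot decide the ER- calls against TEB. Only the locations compared gave 2 for ER- nipple against TEB. G1 cells alone were added after the data were seen, as were the alternatives of class by location and of the summed share. G1 cells gave 9 for basal against ER- cells, and 7, 1 and 1 for basal nipple against TEB, nipple against duct and duct against TEB. They gave 2 for ER+ nipple against TEB, and a summed share of 3.23% in ER- duct cells. They gave fewer for class by location, and left 1 TEB fragment of ER- cells. These causes were not tested.

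With the replicate block on the label number, basal duct against TEB gave 1 call and ER+ duct against TEB 2. The ER- block could not be fitted, and whether the numbers mark a pairing such as a shared mouse is not known. Leaving out each fragment gave 13 to 22 calls for basal against ER-, 55 to 61 for basal against ER+ and 36 to 50 for ER+ against ER- cells, 12 to 23, 4 to 11 and 3 to 4 for basal nipple against TEB, nipple against duct and duct against TEB, 0 to 6 for ER- nipple against TEB, 2 to 4, 0 to 2 and 1 to 2 for ER+ nipple against TEB, nipple against duct and duct against TEB, and 7 to 12 for class by location. Low-count genes such as Cox7a1 and few ER- TEB fragments limit the precision.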
